A study of Mus musculus with 15 samples.

Results

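The comparison described here sets Clic4-knockout cells against wild-type cells when both had been exposed to hydrogen peroxide (H2O2). Its members are the 7 of 15 libraries whose titles place them in the H2O2-treated groups: knockout replicates 5, 7 and 8, and wild-type replicates 13, 14, 15 and 16. All cells were 6DT1, a mouse mammary cancer line of FVB/N1 background, and all 7 cultures received 1 µM H2O2 for 24 h. The other 8 libraries, 4 of each genotype, were left untreated and are used to estimate the spread and to ask whether the genotype difference depended on the peroxide. Stranded mRNA libraries were sequenced with paired ends. The labels give neither the number of knockout clones nor whether replicates were separate cultures, so p-values measure the spread between these libraries, and a property of one clone cannot be told apart from loss of Clic4.

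CLIC4 belongs to the chloride intracellular channel family, proteins that exist both as soluble glutathione transferase-like folds and in membranes, mitochondrial membranes among them. Hydrogen peroxide is removed by catalase, peroxiredoxins and glutathione peroxidases, and it is also a signal that acts on redox-sensitive regulators such as NRF2, which drives antioxidant genes, and NF-kB, which drives inflammatory genes.

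The treated libraries held 12.31 to 15.84 M counts each. Correlations of log2 CPM (counts per M after scaling, plus 1) were 0.9964 to 0.9966 between knockout libraries and 0.9953 to 0.9966 between wild-type libraries, against 0.9503 to 0.9534 between genotypes. The first principal component held 89.31% of the variance among the 7 libraries and separated the genotypes, and the next held 2.73%. Noncoding transcripts linked to ribosomal RNA (Gm42418, Gm26917 and CT010467.1 summed) stood at 1411 to 1552 CPM in the knockout libraries and 444.9 to 566.6 CPM in the wild-type ones. Their part in the results was not tested. One untreated library stood apart. Wild-type replicate 9, whose genotype field goes against its title, held 327 CPM of Clic4, beside 317 to 325 CPM in the other untreated wild-type libraries, but it also carried transcripts of leukocytes: 288 counts of Lyz2, 128 of Laptm5 and 67 of Ptprc, against at most 5, 3 and 1 in any other library. Of 15 immune markers, 11 had 10 counts or more in it and 3 or 4 in each other library. Other transcripts were not confined to leukocyte genes. The fibroblast marker Pdgfrb had 43 counts in replicate 9, Hoxc6 14 and the hemoglobin gene Hbb-bs 7, against at most 1 in any other library. Replicate 9 enters the treated comparison only through the shared gene filter, scaling and estimate of spread. With it 13085 genes were tested, and without it 13049. The main values that rest on it are given with and without it. The part of these transcripts in the results was not tested.

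Clic4 transcript was lower in every knockout library but was not lost. The gene lies on chromosome 4 (mm10, chr4:135213969-135272814, minus strand, protein coding). It was measured at 75.9, 68.4 and 71.1 CPM in the knockout libraries and 314, 313, 317 and 315 CPM in the wild-type libraries, and the groups did not overlap. The wild-type level was 4.38 times the knockout level (log2 fold change -2.13 ± 0.0475, SE, adjusted p = 2.92e-24; edgeR's quasi-likelihood test with Benjamini-Hochberg adjustment over all genes, which gives every adjusted p below unless another tool is named). The counts are per gene, so they do not show which exons the remaining knockout reads came from.

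Among the relatives of Clic4, Clic1 was the most abundant. Per gene length it stood at 140.5 RPKM in wild type, against 65.4 RPKM for Clic4. Clic1 was slightly higher in the knockout, at 361, 362 and 355 CPM against 291, 304, 302 and 318 CPM (log2 fold change 0.24 ± 0.0365, SE, adjusted p = 1.56e-06). Clic5 was expressed near the limit of detection, with 59 counts over the knockout libraries and 20 over the wild-type ones, and was 4.25-fold higher in the knockout (95% exact binomial interval 2.52 to 7.45, counting error only). Clic3, with 6 and 24 counts, and Clic6, with none in any treated library, were too low to test.

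The 2 genotypes differed across most of the transcriptome. Of 13085 genes tested, 8558 (65.4%) were called at an adjusted p under 0.05, 4315 (33%) higher and 4243 (32.4%) lower in the knockout. Most of these differences were small. The median size over all tested genes was 0.311 on the log2 scale, 5229 of the called genes differed by under 1.5-fold, and 1820 (13.9%) were called and differed by 2-fold or more, 916 of them higher and 904 lower. When the test asked for a difference beyond 1.5-fold (glmTreat), 2223 genes passed. For 8684 genes (66.4%) no knockout library overlapped a wild-type library. Counts of called list members given below are to be set against 33% higher and 32.4% lower over all genes.

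Large differences were a smaller share at higher expression. Among genes with a mean over 100 CPM, 78% were called but 4.51% were called and at least 2-fold apart, while between 1 and 5 CPM these shares were 51.8% and 34.1%. Protein-coding genes were called more often (68.8% of 11610) than other noncoding genes (43.9% of 898) or pseudogenes (31.4% of 577). The median standard error of a log2 fold change was 0.0681 for protein-coding genes and 0.287 for pseudogenes, so the classes were not measured with equal precision.

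**Figure D1:**
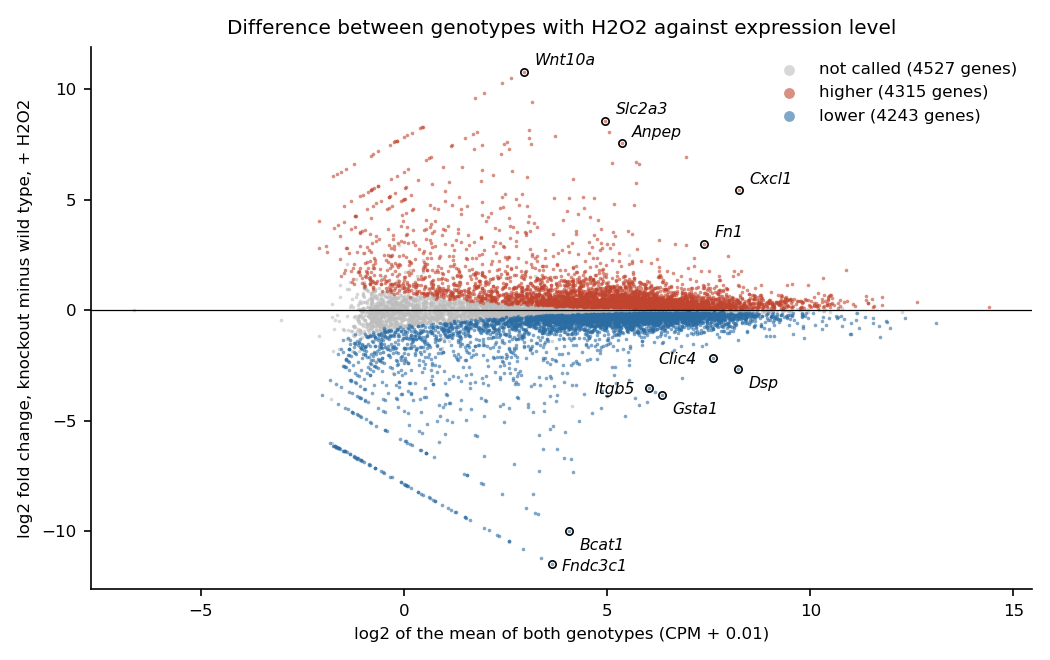
Each point is 1 of the 13085 genes tested: the log2 of its mean CPM over both treated genotypes (plus 0.01) against its log2 fold change, knockout minus wild type with H2O2, with genes called higher in red, called lower in blue and the rest in grey. Differences narrow toward high expression, Wnt10a and Fndc3c1 lie at the ends, and the slanting rows of points are genes with very few or no counts in 1 genotype, whose fitted values are set by the prior count.

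Genes for handling peroxide differed in both directions. Catalase, the peroxisomal enzyme that breaks down H2O2 (Cat, chromosome 2), was measured at 52.8, 53.5 and 56.4 CPM in the knockout libraries and 108, 104, 107 and 102 CPM in the wild-type libraries, with no overlap (log2 fold change -0.96 ± 0.0563, SE, adjusted p = 1.37e-14). Prdx4, the peroxiredoxin of the endoplasmic reticulum, went the other way, at 51.9, 46.9 and 46.2 CPM against 23.2, 23, 24 and 22.5 CPM (log2 fold change 1.06 ± 0.062, SE, adjusted p = 1.12e-14). Both differences were close to 2-fold. The abundant cytosolic peroxiredoxin Prdx1 was lower by a small margin (674 against 786 CPM, log2 fold change -0.22, adjusted p = 1.84e-05), as was Gpx4, which reduces lipid peroxides (297 against 378 CPM, log2 fold change -0.35, adjusted p = 1.31e-08). Extracellular superoxide dismutase (Sod3) was low in both genotypes and lower in the knockout (1.69 against 9.34 CPM, log2 fold change -2.45, adjusted p = 2.00e-13). Of the 21 tested members of the 23 peroxide-removal genes, 7 were higher, 11 lower and 3 did not pass the test. Their median log2 fold change was -0.19, against 0 over all genes. Over all genes, 33% were higher and 32.4% lower.

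Antioxidant genes under NRF2 leaned lower in the knockout. All 22 listed NRF2 targets were tested: 15 were lower, 4 higher and 3 did not pass, with a median of -0.36. The light chain of ferritin (Ftl1), which stores iron, was among the most abundant, at 3107 against 4442 CPM (log2 fold change -0.52, adjusted p = 3.52e-10). Heme oxygenase (Hmox1), which breaks down heme, was measured at 81.5, 71.9 and 78.7 CPM in the knockout and 116, 118, 117 and 119.7 CPM in wild type, without overlap (log2 fold change -0.60 ± 0.0618, SE, adjusted p = 9.73e-09). The cystine importer Slc7a11 stood at 29.2 against 49.6 CPM (log2 fold change -0.77, adjusted p = 3.35e-04) and transaldolase (Taldo1), of the pentose phosphate pathway, at 89.8 against 186 CPM (log2 fold change -1.05, adjusted p = 5.74e-16). Nqo1, a quinone reductase often used as a readout of NRF2, did not pass the test (17.4 against 18.7 CPM, log2 fold change -0.10, adjusted p = 0.363), and its replicates overlapped. The 4 members that were higher were epoxide hydrolase Ephx1 (123 against 68.5 CPM), glutathione reductase Gsr (144 against 104 CPM), transketolase Tkt (415 against 304 CPM) and Gclm, of glutathione synthesis (42 against 37.8 CPM, log2 fold change 0.15, adjusted p = 0.0426). The call for Gclm was lost in DESeq2 and when any treated library but wild-type replicate 13 was left out, with log2 fold changes of 0.14 to 0.16. Nqo1 passed without knockout replicate 7 (log2 fold change -0.23).

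Glutathione transferases, which conjugate glutathione to reactive compounds, had the lowest median of the redox lists. Of 20 listed, 17 were tested, of which 12 were lower and 3 higher, with a median of -1.26, and 9 were called lower by 2-fold or more. Over all genes tested, 32.4% were lower and 904 of 13085 were lower by 2-fold or more. With no filter on low counts the median of the list was -0.52. Gsta1 was measured at 11.6, 9.82 and 10.9 CPM in the knockout libraries and 160.2, 139.6, 159 and 149 CPM in the wild-type libraries (log2 fold change -3.82 ± 0.071, SE, adjusted p = 4.27e-26). Every knockout library lay far below every wild-type library. Gstp1, the most abundant member of the list in wild type by RPKM, stood at 163, 169.9 and 179.5 CPM against 413, 417, 429.8 and 441 CPM (log2 fold change -1.32 ± 0.0455, SE, adjusted p = 7.81e-20). Gsta1 and Gsta2, and Gstp1 and Gstp2, are near-identical pairs whose reads the counting could have divided between copies, so the values of single members are uncertain. Gsta2 and Gstp2 had the same direction (-3.29 and -1.27 on the log2 scale).

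Metal-binding genes were mixed. The metallothioneins Mt1 and Mt2, small cysteine-rich proteins that bind zinc and copper, were higher in the knockout, Mt1 at 175, 165 and 169 CPM against 138, 140.1, 152 and 148 CPM (log2 fold change 0.23 ± 0.0453, SE, adjusted p = 6.12e-05) and Mt2 at 223 against 139.9 CPM (log2 fold change 0.67, adjusted p = 1.06e-12). The transferrin receptor Tfrc was higher (142 against 88.6 CPM, log2 fold change 0.68, adjusted p = 7.80e-05), as was Lcn2, a siderophore-binding protein that is also an NF-kB target (76.5 against 23 CPM, log2 fold change 1.73, adjusted p = 7.68e-04). Of 13 NADPH oxidase genes, the enzymes that make superoxide, 2 were expressed enough to test, and Duox1 was lower (0.577 against 1.26 CPM, log2 fold change -1.15, adjusted p = 0.0135). That call was lost without knockout replicate 7, at a log2 fold change of -0.81.

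Transcripts of mitochondrial DNA were lower in the knockout with H2O2. All 13 protein-coding genes of the mitochondrial genome, which encode core subunits of complexes I, III, IV and V, were tested: 10 were lower, 0 were higher and 3 (mt-Co3, mt-Atp6 and mt-Nd3) did not pass, with a median log2 fold change of -0.95. Cytochrome b of complex III (mt-Cytb, mm10 chrM:14145-15288) was measured at 2236, 2037 and 1892 CPM in the knockout libraries and 4761, 4748, 4925 and 4418 CPM in the wild-type libraries, without overlap (log2 fold change -1.20 ± 0.134, SE, adjusted p = 6.53e-06). The complex I subunit mt-Nd6 stood at 326, 296 and 267 CPM against 680.5, 699, 659.9 and 601 CPM (log2 fold change -1.16 ± 0.143, SE, adjusted p = 1.66e-05), and mt-Co1 of complex IV, the most abundant of the 13 in wild type by RPKM, at 7604, 6985 and 6581 CPM against 10523, 10520.0, 10514 and 9749 CPM (log2 fold change -0.55 ± 0.142, SE, adjusted p = 0.00469).

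Summed, the 13 genes made up 1.75, 1.64 and 1.5% of counts in the knockout libraries and 2.94, 2.94, 2.98 and 2.73% in the wild-type ones. These are 1.63 ± 0.125% (SD, n = 3) and 2.90 ± 0.116% (SD, n = 4), a difference of -1.27 percentage points (exact two-sided permutation test over the 35 splits, p = 0.0286, the smallest this design allows). The untreated libraries gave 1.97 ± 0.244% and 2.75 ± 0.44% (SD, n = 4 each; 2.86 ± 0.466% in wild type without replicate 9), and the untreated median of the list was -0.47. Without wild-type replicate 9 the untreated median was -0.51. Without knockout replicate 8 the treated median was -0.77. Of the members not called, mt-Co3 passed without knockout replicate 7 (log2 fold change -0.77) and mt-Nd3 without wild-type replicate 15 (0.31), the latter as higher. No member was called in the edgeR test of the difference between the treated and untreated contrasts, though DESeq2 called mt-Atp8. The mitochondrial share and the ribosomal RNA-linked transcripts differed between genotypes in opposite directions, and whether either reflects RNA quality was not tested.

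Nuclear genes for the same complexes had medians near 0. Of 36 nuclear complex I subunits, 6 were higher, 8 lower and 22 did not pass, while 65.4% of all genes were called. The median of these subunits was -0.03, and none reached 2-fold. At the ends were Ndufs6 (22 against 29.2 CPM, log2 fold change -0.41, adjusted p = 1.37e-05) and Ndufb5 (55 against 44.1 CPM, log2 fold change 0.32, adjusted p = 5.43e-06). Of 38 nuclear subunits of complexes II to V, 17 were higher and 5 lower, against 33% and 32.4% over all genes. Their median was 0.09. Uqcrq of complex III was the lowest, at 45.3 against 70.7 CPM (log2 fold change -0.64, adjusted p = 2.90e-06), and Atp5j2 of the ATP synthase the highest, at 98 against 74 CPM (log2 fold change 0.41, adjusted p = 2.77e-08). Glycolytic genes were close between genotypes: pyruvate kinase Pkm did not pass (4776 against 5088 CPM, log2 fold change -0.09, adjusted p = 0.0561; -0.11 and past the threshold without wild-type replicate 13) and lactate dehydrogenase Ldha was higher by a small margin (2346 against 1911 CPM, log2 fold change 0.30, adjusted p = 1.23e-06). A pair of transporters in the list differed far more. The glucose carrier Slc2a3 was measured at 60.8, 60.2 and 63.7 CPM in the knockout, with 9 counts in all over the wild-type libraries (405-fold, 95% interval 213 to 888), and the lactate exporter Slc16a3 at 33.4, 31.6, 37.9 and 33.1 CPM in wild type, with 13 counts over the knockout libraries (107-fold lower, 95% interval 62.6 to 202).

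**Figure D2:**
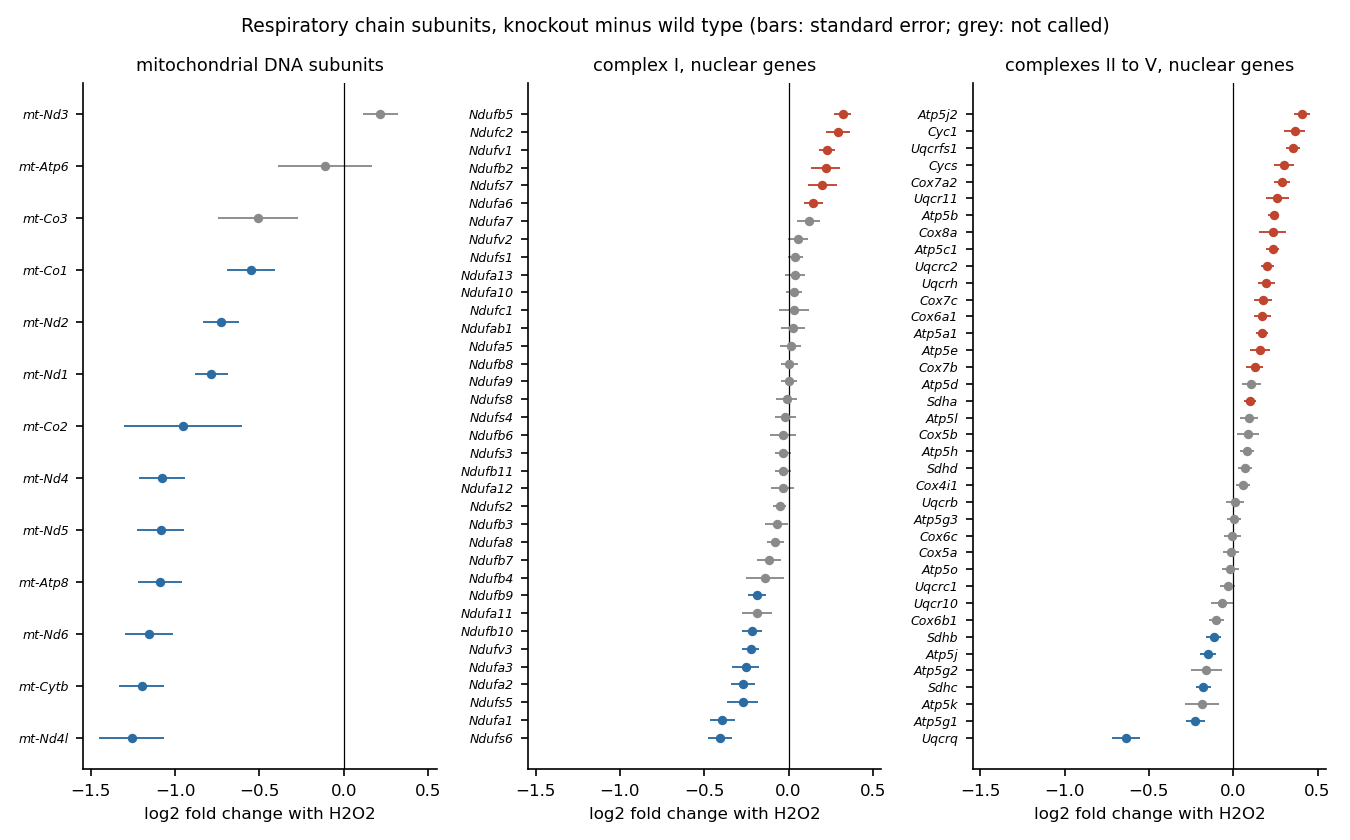
Log2 fold changes, knockout minus wild type with H2O2, of respiratory chain subunits encoded by mitochondrial DNA (left), by nuclear genes of complex I (middle) and by nuclear genes of complexes II to V (right), on 1 shared horizontal scale. Points are single genes with standard errors, red where called higher, blue where called lower and grey where not called: 10 of 13 mitochondrial genes are blue, while the nuclear genes gather around 0.

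Interferon-stimulated genes were lower in the knockout almost throughout. These genes are switched on when interferon receptors activate a complex that holds STAT2 and IRF9 and binds the interferon-stimulated response element (ISRE) in their promoters. Of 36 listed genes, 34 were tested, of which 33 were lower and 1 (Ifit2) did not pass, with a median of -1.56. In all, 23 were called lower by 2-fold or more, against 904 of all 13085 genes. Ifit2, which binds viral RNA, stood at 10.1 against 9.28 CPM with overlapping replicates (log2 fold change 0.12, adjusted p = 0.316).

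RefSeq promoter windows (GRCm38.p6, the assembly of mm10) matched 24 of the 34 tested members, and the 250 bases before the annotated start were searched on both strands for the ISRE core, which is TTTC, then any 2 bases, then TTTC, or on the other strand GAAA, any 2 bases and GAAA. It was present in 9 of 24 (37.5%), in 306 of the 9579 tested genes with a window (3.19%), in 41 of 598 genes called at least 2-fold lower (6.86%) and in 17 of 639 called at least 2-fold higher (2.66%). These sets overlap: list members called at least 2-fold lower, Ifit1 and Isg15 among them, are also counted in the 598. Stretches of 5 such promoters are shown because these genes differed between genotypes and carry the core, which is in capitals, with overlapping matches merged. Letters are 5′ to 3′ on the strand of the gene.
Ifit1, chr19:34640760-34640838, plus strand: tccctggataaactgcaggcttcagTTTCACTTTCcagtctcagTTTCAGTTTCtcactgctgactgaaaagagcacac
Rsad2, chr12:26456538-26456597, minus strand: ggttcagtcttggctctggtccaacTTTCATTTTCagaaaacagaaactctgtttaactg
Isg15, chr4:156200850-156200921, minus strand: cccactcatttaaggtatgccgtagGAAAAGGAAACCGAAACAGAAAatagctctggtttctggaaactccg
Oas3, chr5:120777700-120777759, minus strand: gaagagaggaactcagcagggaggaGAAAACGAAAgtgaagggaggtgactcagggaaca
Stat2, chr10:128270251-128270310, plus strand: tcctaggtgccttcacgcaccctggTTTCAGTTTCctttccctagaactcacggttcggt

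Among the effectors, Isg15, a ubiquitin-like modifier, was measured at 11.5, 12.7 and 12.3 CPM in the knockout libraries and 43, 39.9, 39.9 and 45 CPM in the wild-type libraries (log2 fold change -1.79 ± 0.0768, SE, adjusted p = 1.20e-17). Usp18, which removes that modifier and damps the interferon receptor, stood at 3.4, 4.19 and 3.44 CPM against 26.5, 26.8, 26 and 25.6 CPM (log2 fold change -2.83 ± 0.121, SE, adjusted p = 1.05e-17). Groups did not overlap for either gene. Oas3, which senses double-stranded RNA, stood at 59, 54.9 and 55.5 CPM against 177, 175, 155 and 174 CPM (log2 fold change -1.59 ± 0.061, SE, adjusted p = 3.20e-17). Rsad2, which makes a chain-terminating nucleotide, stood at 3.81 against 19.1 CPM (log2 fold change -2.33, adjusted p = 4.46e-16), and Ifit1, a binder of foreign RNA caps, at 1.3 against 11.4 CPM (log2 fold change -3.14, adjusted p = 1.51e-15). Ifi44 had 46 counts over the knockout libraries and 1234 over the wild-type ones (18.6-fold lower, 95% interval 13.9 to 25.6). The paralogs Ifit3 and Ifit3b are near identical and were called at -2.12 and -2.79, with reads that could have been split between them.

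Regulators of these genes were lower, with Stat2 already counted in the list. Stat2 was measured at 20.8, 24.2 and 21.4 CPM against 57.2, 56.9, 52.9 and 54.2 CPM (log2 fold change -1.32 ± 0.0879, SE, adjusted p = 7.99e-12). Irf9 (24.1 against 51.3 CPM) and Irf7 (18.2 against 45.4 CPM) were both lower by over 2-fold (log2 fold change -1.09 and -1.32). The cytosolic RNA sensors Ifih1 (4.04 against 18.1 CPM) and Ddx58 (67 against 105 CPM) were also lower (-2.16 and -0.64). A pair of genes outside the list that are known to respond to interferon, Apol9a and Samd9l, were among the 8 most reduced of genes with at least 20 CPM in both genotypes (22.5 against 72.6 CPM and 23.3 against 72 CPM).

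Genes for MHC class I antigen presentation, many of which interferon also induces, were mixed. Of 18 tested, 6 were higher, 2 lower and 10 did not pass, with a median of 0.09. Over all genes, 33% were higher and 32.4% lower. B2m, the shared light chain, stood at 531 against 516 CPM (log2 fold change 0.04, adjusted p = 0.284) and the heavy chain H2-K1 at 177 against 164 CPM (log2 fold change 0.10, adjusted p = 0.0511). Neither passed, though H2-K1 did without knockout replicate 7 (log2 fold change 0.14) or wild-type replicate 16 (0.13). The immunoproteasome subunit Psmb8 was higher in the knockout, at 16.7, 14.6 and 20.2 CPM against 7.36, 6.1, 6.09 and 5.39 CPM (log2 fold change 1.45 ± 0.135, SE, adjusted p = 1.34e-09), as was Nlrc5, the activator of class I genes (5.66 against 2.28 CPM, log2 fold change 1.29, adjusted p = 7.60e-07). Class I heavy chains resemble each other closely, so their separate values are uncertain.

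NF-kB target genes were higher in the knockout in most cases. Of 36 listed, 31 were tested, of which 28 were higher, 2 lower (Ccl5 and Tnfaip2) and 1 (Il23a) did not pass. The median was 2.14, and 23 were called higher by 2-fold or more, against 916 of all genes. NF-kB dimers are held in the cytoplasm by inhibitors such as the product of Nfkbia, and many of the inhibitors are themselves targets.

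Promoter windows matched 20 of the 31 tested members. The kappa B consensus searched was GGGRNNYYCC, where R is A or G, Y is C or T and N is any base. The kappa B consensus was present in 11 of them (55%), in 1007 of 9579 tested genes with a window (10.5%), in 90 of 639 genes called at least 2-fold higher (14.1%), in 54 of 598 called at least 2-fold lower (9.03%) and in 4 of 24 interferon-stimulated genes (16.7%). List members called at least 2-fold higher, Cxcl1 and Nfkbia among them, are also counted in the 639. Stretches of 4 promoters, from chemokines and from inhibitors of NF-kB, show the match in capitals. Cxcl1 and Cxcl2 carry the same letters at the match.
Cxcl1, chr5:90891149-90891209, plus strand: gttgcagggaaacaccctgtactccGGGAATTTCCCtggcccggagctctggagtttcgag
Cxcl2, chr5:90903777-90903837, plus strand: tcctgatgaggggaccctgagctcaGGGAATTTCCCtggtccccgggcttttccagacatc
Nfkbia, chr12:55492648-55492701, minus strand: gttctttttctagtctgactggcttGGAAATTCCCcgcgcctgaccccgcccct
Nfkbie, chr17:45555569-45555628, plus strand: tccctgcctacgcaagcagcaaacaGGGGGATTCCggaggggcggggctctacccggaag

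Some targets were almost unread in wild type. Icam1, an adhesion molecule for leukocytes, was measured at 4.38, 3.98 and 5.15 CPM in the knockout with 1 count over the wild-type libraries, and the chemokine Cxcl2 at 3.61, 3.16 and 4.66 CPM with 2 counts. Chemokines that draw neutrophils and monocytes were expressed in both genotypes and higher in the knockout. Cxcl1 was measured at 658, 504 and 631 CPM in the knockout libraries and 15.6, 13.2, 11.2 and 14.4 CPM in the wild-type libraries (log2 fold change 5.45 ± 0.474, SE, adjusted p = 6.36e-07). The groups did not overlap, and replicate 7 was the lowest of the knockout libraries. Cxcl5 stood at 74.3, 53.4 and 82.6 CPM against 2.9, 2.37, 2.08 and 2.51 CPM (log2 fold change 4.81 ± 0.551, SE, adjusted p = 8.17e-06) and Ccl2 at 450.1, 375 and 448 CPM against 67.4, 75.5, 80.1 and 81 CPM (log2 fold change 2.48 ± 0.32, SE, adjusted p = 2.39e-05). Replicate 7 was again the lowest of the 3 for both. The granulocyte growth factor Csf3 had 46, 30.3 and 46.6 CPM against 1.01, 1.37, 0.445 and 1.72 CPM (log2 fold change 5.15 ± 0.733, SE, adjusted p = 5.69e-05). Of 26 chemokines, 14 were tested, with 8 higher and 4 lower, against 33% and 32.4% over all genes. Cx3cl1, which is tethered to the membrane, was one of the 4 lower (22 against 40.1 CPM, log2 fold change -0.87, adjusted p = 3.58e-11), and Ccl5, an interferon and NF-kB target, was low in both genotypes (0.335 against 0.971 CPM, log2 fold change -1.48, adjusted p = 0.00219).

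Components and inhibitors of NF-kB were higher, with Nfkb2, Nfkbia and Tnfaip3 already counted in the target list. Relb, a subunit of the alternative pathway, was measured at 54.5, 44.6 and 55.9 CPM against 7.62, 6.66, 6.53 and 8.05 CPM (log2 fold change 2.84 ± 0.263, SE, adjusted p = 1.14e-06) and its partner Nfkb2 at 127, 108 and 121 CPM against 43.1, 42.2, 41.3 and 41.2 CPM (log2 fold change 1.5 ± 0.159, SE, adjusted p = 3.96e-06). The main activating subunit Rela differed far less (80.1 against 68.7 CPM, log2 fold change 0.22, adjusted p = 0.00268). Nfkbia stood at 146, 123 and 146 CPM against 38.4, 40.9, 41.5 and 40.9 CPM (log2 fold change 1.77 ± 0.202, SE, adjusted p = 7.79e-06), and the ubiquitin-editing enzyme Tnfaip3 at 28.5 against 7.51 CPM (log2 fold change 1.93, adjusted p = 2.43e-06). The receptor Cd40 was measured at 25.7, 26 and 27.5 CPM in the knockout, with 6 counts over the wild-type libraries (261-fold, 95% interval 119 to 712). The prostaglandin enzymes Ptgs2 (201 against 53.1 CPM, log2 fold change 1.92, adjusted p = 1.56e-05) and Ptges (181 against 22.9 CPM, log2 fold change 2.98, adjusted p = 3.54e-19) and the adhesion molecule Vcam1 (94.6 against 19.9 CPM, log2 fold change 2.25, adjusted p = 6.98e-09) were higher. Immediate early genes, which growth factors and stress induce, leaned the same way: of 28 tested, 21 were higher and 1 lower, with Ier3 among the former (279.9 against 81.2 CPM, log2 fold change 1.79, adjusted p = 7.70e-06) and Myc higher by a smaller margin (599 against 426 CPM, log2 fold change 0.49, adjusted p = 5.02e-05).

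**Figure D3:**
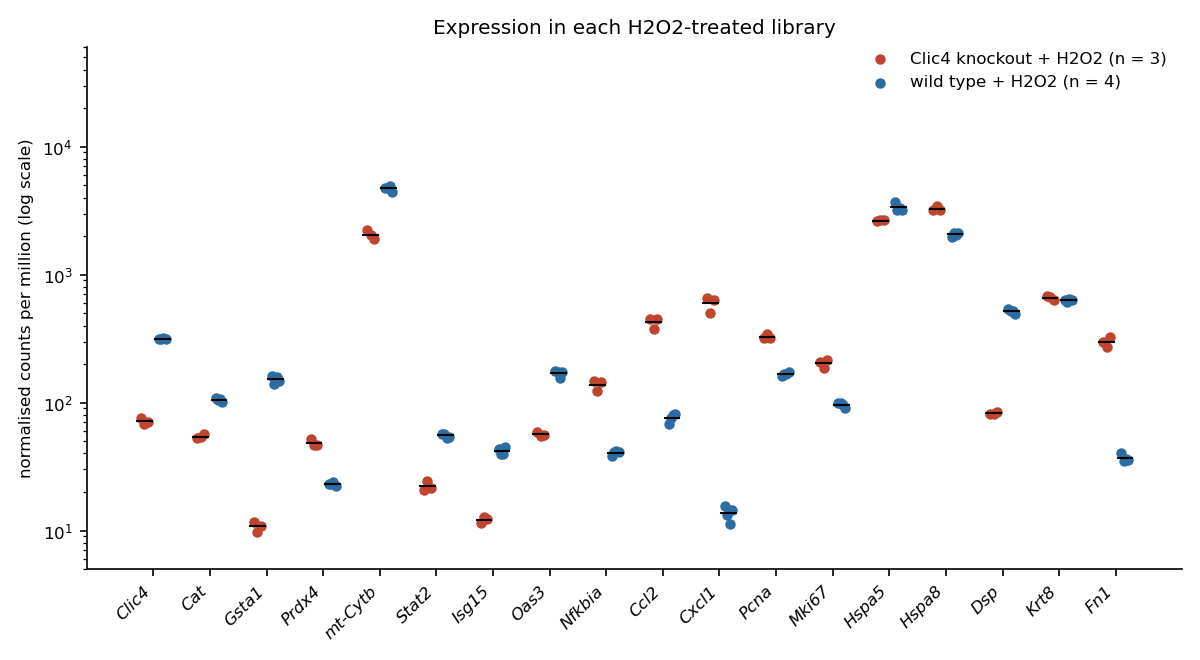
Normalised counts per M (log axis) of 18 genes in each H2O2-treated library, with the 3 Clic4-knockout libraries in red, the 4 wild-type libraries in blue and black bars at the group means. The groups are apart for Clic4, catalase, interferon-stimulated genes and NF-kB targets, while Krt8 overlaps.

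Cell cycle genes were higher in the knockout as a block. All 35 listed DNA replication genes were tested, and 34 were higher, 0 lower and 1 (Gins2) did not pass (35.9 against 33 CPM, log2 fold change 0.13, adjusted p = 0.0884; past the threshold without knockout replicate 8 or wild-type replicate 16, at 0.17 and 0.16), with a median of 0.97. All 30 mitotic genes were higher, with a median of 0.86. The sliding clamp of replication, Pcna, was measured at 321, 344 and 319 CPM against 159.9, 169, 168 and 174 CPM (log2 fold change 0.97 ± 0.0488, SE, adjusted p = 5.73e-16), and the nucleotide-making enzyme subunit Rrm2 at 318, 313 and 305 CPM against 116, 122, 120.4 and 118 CPM (log2 fold change 1.39 ± 0.0507, SE, adjusted p = 5.81e-19). The initiation factor Mcm10 differed most of the 35 (46.5 against 16.2 CPM, log2 fold change 1.52, adjusted p = 8.68e-15). Among mitotic genes, Foxm1, the transcription factor of that programme, stood at 113, 115 and 119.7 CPM against 39.8, 41, 41.6 and 36.7 CPM (log2 fold change 1.54 ± 0.0565, SE, adjusted p = 3.00e-19) and Mki67 at 208, 187 and 215 CPM against 99.3, 98.4, 96 and 91 CPM (log2 fold change 1.08 ± 0.0709, SE, adjusted p = 3.24e-10). The kinase Aurka had the smallest difference (29 against 23.7 CPM, log2 fold change 0.29, adjusted p = 6.47e-04). In bulk RNA, more cells in cycle and more RNA per cycling cell cannot be told apart.

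Promoters of replication genes are known for E2F sites. The letters TTTCGCGC or TTTGGCGC, on either strand, were found before the start of 5 of the 28 replication genes with a window (17.9%) and of 147 of 9579 tested genes (1.53%). They were found in 11 of 639 genes called at least 2-fold higher (1.72%). For genes called at least 2-fold lower this was 3 of 598 (0.502%), and for mitotic genes 1 of 25 (4%). Stretches from Mcm5 and Mcm6, subunits of the replicative helicase, show matches on both strands that overlap within 1 site, in capitals.
Mcm5, chr8:75109331-75109392, plus strand: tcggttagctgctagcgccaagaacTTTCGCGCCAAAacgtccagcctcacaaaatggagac
Mcm6, chr1:128359779-128359840, minus strand: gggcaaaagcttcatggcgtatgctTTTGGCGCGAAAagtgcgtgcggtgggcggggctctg
Mcm5 stood at 128 against 61.2 CPM (log2 fold change 1.07, adjusted p = 2.40e-16) and Mcm6 at 229.5 against 121 CPM (log2 fold change 0.93, adjusted p = 7.43e-16). For the NRF2 targets, the core of the antioxidant response element, TGACNNNGC with N any base, was searched in the same way. It was present in 3 of 17 targets with a window (17.6%) and in 1325 of 9579 tested genes (13.8%).

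Growth arrest and p53 genes were mixed. The cell cycle inhibitor Cdkn1a was higher in the knockout, at 289, 293 and 283 CPM against 150.4, 152, 154 and 156 CPM (log2 fold change 0.91 ± 0.0729, SE, adjusted p = 1.05e-08), as were the death receptors Fas (15 against 2.15 CPM, log2 fold change 2.80, adjusted p = 3.06e-06) and Eda2r (36.3 against 7.77 CPM, log2 fold change 2.22, adjusted p = 3.69e-14). Perp, a desmosomal p53 target, was almost absent from the knockout, with 9 counts against 2109, and was 163-fold lower (95% interval 85.5 to 356). Bax, which permeabilises mitochondria, was lower (84.8 against 117 CPM, log2 fold change -0.46, adjusted p = 1.04e-04). In all, 13 of 23 tested p53 targets were higher and 8 lower, against 33% and 32.4% over all genes. Ribosomal protein genes were higher in 50 of 53 cases with 0 lower, by small margins (median 0.33). Rpl22 was the exception in size, at 598, 613 and 608 CPM against 261, 273, 284 and 274 CPM (log2 fold change 1.15 ± 0.0412, SE, adjusted p = 1.63e-19), while Rpl5 did not pass (187 against 183 CPM, log2 fold change 0.03, adjusted p = 0.716).

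Most listed chaperones of the endoplasmic reticulum were lower in the knockout. Of 19 tested, 15 were lower, 1 higher (Herpud1) and 3 did not pass, with a median of -0.46. Hspa5, the major chaperone of this compartment, was measured at 2609.6, 2662 and 2664 CPM against 3693, 3198, 3326 and 3216 CPM (log2 fold change -0.34 ± 0.0472, SE, adjusted p = 3.35e-07). Sel1l, a scaffold for degrading misfolded proteins, differed most of the 19, at 313, 323 and 326 CPM against 775, 701, 694 and 678 CPM (log2 fold change -1.15 ± 0.0586, SE, adjusted p = 2.06e-13). Wild-type replicate 13 was the highest of its group for both genes. The heat shock list went the other way in part: Hspa8, the constitutive cytosolic chaperone, was higher (3272 against 2058 CPM, log2 fold change 0.67, adjusted p = 9.04e-14). Of 19 heat shock genes 9 were higher and 4 lower, against 33% and 32.4% over all genes. The small heat shock protein gene Hspb7 differed most of them, at 16.3, 17.9 and 17.8 CPM in the knockout with 5 counts over the wild-type libraries. Serpinh1, a collagen chaperone of the endoplasmic reticulum that was counted in the heat shock list, went against the direction of that compartment's listed chaperones. It was higher at 489, 473 and 482 CPM against 142, 130.3, 148 and 147 CPM (log2 fold change 1.76 ± 0.0498, SE, adjusted p = 2.07e-21).

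Integrated stress response genes, which ATF4 induces when translation is curbed, were split. Of 21 tested, 11 were higher and 7 lower, against 33% and 32.4% over all genes. Atf4 itself did not pass (402 against 368 CPM, log2 fold change 0.12, adjusted p = 0.0819). Gdf15, a stress cytokine, was measured at 18.8, 16.1 and 18.4 CPM in the knockout and had 1 count over all wild-type libraries (1052-fold, 95% interval 188 to 41600). The lipoprotein receptor Vldlr was lower (79.4 against 244 CPM, log2 fold change -1.62, adjusted p = 4.61e-20), and the mitochondrial folate enzyme Mthfd2 was higher (297 against 194 CPM, log2 fold change 0.62, adjusted p = 2.31e-08). Cholesterol biosynthesis leaned lower, with 16 of 21 tested genes lower and 2 higher (median -0.33). Mvd, of the mevalonate steps, stood at 11.3 against 23.4 CPM (log2 fold change -1.06, adjusted p = 5.11e-10), while Hsd17b7 was higher (59.7 against 28.4 CPM, log2 fold change 1.07, adjusted p = 1.41e-15). Hif1a, the oxygen-regulated factor, was lower (129.5 against 224 CPM, log2 fold change -0.79, adjusted p = 1.08e-11). Of 21 hypoxia genes tested, 11 were higher and 7 lower, against 33% and 32.4% over all genes. Bcat1, which takes the amino group from branched-chain amino acids, had 1 count over the knockout libraries against 34.2, 34.3, 35.3 and 29.7 CPM in wild type (1378-fold lower, 95% interval 247 to 54440).

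Junction and matrix genes differed strongly gene by gene rather than as lists. The desmosome protein Dsp (chromosome 13) was measured at 81.9, 81.4 and 84.9 CPM in the knockout libraries and 535, 523, 516 and 495 CPM in the wild-type libraries (log2 fold change -2.64 ± 0.0455, SE, adjusted p = 1.05e-26), and the desmosomal cadherin Dsc2 had 1 count over the knockout libraries against 17.2, 16.9, 15.4 and 14.8 CPM in wild type (666-fold lower, 95% interval 119 to 26320). Among the keratins of simple epithelia, Krt18 was lower (168 against 343 CPM, log2 fold change -1.03, adjusted p = 5.29e-19), Krt19 higher (169 against 57.2 CPM, log2 fold change 1.56, adjusted p = 2.15e-18), and Krt8 did not pass (662 against 631 CPM, log2 fold change 0.07, adjusted p = 0.121). Elf3, an epithelial transcription factor, was measured at 7.08, 5.77 and 7.12 CPM in the knockout and had 0 counts in all 4 wild-type libraries, so it was at least 131-fold higher with wild type set at 3 counts over the group. Of 33 epithelial genes 16 were tested, 9 higher and 6 lower, against 33% and 32.4% over all genes. The epithelial adhesion genes Cdh1 and Epcam were too low to test. They had 3 and 1 counts over the knockout libraries and 2 and 0 over the wild-type ones.

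Of 22 mesenchymal genes 14 were tested, of which 7 were higher and 1 lower, against 33% and 32.4% over all genes. The median was 0.21, and 0.40 among members with at least 1 CPM in 3 libraries. Fibronectin (Fn1) was measured at 299, 274 and 324 CPM in the knockout libraries and 40.5, 34.8, 36.4 and 35.8 CPM in the wild-type libraries (log2 fold change 3.02 ± 0.147, SE, adjusted p = 2.12e-09). Twist1, a transcription factor of mesenchymal cells, was higher (29.8 against 7.52 CPM, log2 fold change 1.99, adjusted p = 3.74e-17), as were Zeb2 (84.7 against 50.1 CPM, log2 fold change 0.76, adjusted p = 5.96e-14) and vimentin (Vim, 4221 against 2734 CPM, log2 fold change 0.63, adjusted p = 1.69e-14). Snai1 and Zeb1 did not pass (adjusted p = 0.959 and 0.657).

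Of 18 collagen genes tested, 7 were higher and 8 lower, against 33% and 32.4% over all genes, so neither direction prevailed. The sizes were larger than over all genes. Of the 18, 5 were called higher and 5 lower by 2-fold or more, against 1820 of all 13085 genes in either direction. The median size was 1.08 on the log2 scale, against 0.311 over all genes. Col16a1 (411 against 186 CPM, log2 fold change 1.15, adjusted p = 3.62e-18) was higher and Col7a1, which anchors epithelia, was lower (31.7 against 83.8 CPM, log2 fold change -1.40, adjusted p = 2.82e-09). Matrix proteases leaned higher, with 14 of 24 tested higher and 6 lower, against 33% and 32.4% over all genes. Mmp3 was measured at 324, 327 and 312 CPM against 107, 109, 115 and 107 CPM (log2 fold change 1.55 ± 0.0518, SE, adjusted p = 1.75e-19), and the surface peptidase Anpep at 81.8, 81.4 and 82.1 CPM in the knockout, with 25 counts over the wild-type libraries (194-fold, 95% interval 131 to 300.3).

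The integrin chain Itgb5, part of a vitronectin receptor, was lower at 11.1, 10.8 and 9.41 CPM against 122, 115, 121 and 123 CPM (log2 fold change -3.52 ± 0.0676, SE, adjusted p = 9.60e-26), whereas Itgb1, the chain shared by most integrins, did not pass (870.3 against 854 CPM, log2 fold change 0.03, adjusted p = 0.562). The actin bundler Fscn1 was higher, at 50.4, 39.9 and 49.8 CPM against 4.72, 3.61, 4.6 and 4.74 CPM (log2 fold change 3.40 ± 0.117, SE, adjusted p = 1.89e-17), while Lcp1, another bundler, had 1 count over the knockout libraries against 19.5, 19.1, 19.7 and 20.6 CPM in wild type (812-fold lower, 95% interval 145.5 to 32100). Actb, often used as a reference gene, was higher in the knockout (1803 against 1127 CPM, log2 fold change 0.68, adjusted p = 2.00e-15). YAP targets did not move as 1 group: Ccn2 was lower (0.611 against 6.11 CPM, log2 fold change -3.26, adjusted p = 6.22e-12) and Ankrd1 higher (67.4 against 37.2 CPM, log2 fold change 0.86, adjusted p = 5.21e-12).

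Of the TGF-beta pathway, 35 of 38 listed genes were tested, with 14 higher and 8 lower, against 33% and 32.4% over all genes. Of the receptor chains, Tgfbr1 and Bmpr2 did not pass (adjusted p = 0.664 and 0.655). Tgfbr2 (72.2 against 93.4 CPM, log2 fold change -0.37, adjusted p = 1.62e-06) and Acvr1b (24.3 against 36.9 CPM, log2 fold change -0.61, adjusted p = 4.52e-09) were among the 8 lower. Ltbp4, which stores the latent ligand in the matrix, was higher (90.3 against 8.27 CPM, log2 fold change 3.45, adjusted p = 3.77e-11) and the ligand Bmp7 lower (0.267 against 6.0 CPM, log2 fold change -4.44, adjusted p = 7.37e-13). The collagen receptor Ddr2 (452 against 143 CPM, log2 fold change 1.66, adjusted p = 2.98e-22), the VEGF receptor Flt1 (191 against 70.4 CPM, log2 fold change 1.44, adjusted p = 1.82e-20) and the EGF receptor ligand Areg (64 against 25.3 CPM, log2 fold change 1.34, adjusted p = 7.84e-13) were higher. In the Wnt pathway 26 of 50 genes were tested, with 7 higher and 13 lower, against 33% and 32.4% over all genes. The ligand Wnt7b was among those lower (29.7 against 86.7 CPM, log2 fold change -1.55, adjusted p = 5.81e-19). Of 12 tested ephrin receptors and ephrins, 7 were lower and 2 higher, against 32.4% and 33% over all genes. Chloride channel genes, of interest because CLIC proteins are named for chloride transport, differed by under 2-fold in each of 17 tested members. Of these, 6 were higher and 7 lower, against 33% and 32.4% over all genes. Ano8 was the most raised (93.8 against 55.2 CPM, log2 fold change 0.77, adjusted p = 1.02e-13) and Clcn5 the most reduced (30.6 against 46.4 CPM, log2 fold change -0.60, adjusted p = 1.11e-09).

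**Figure D4:**
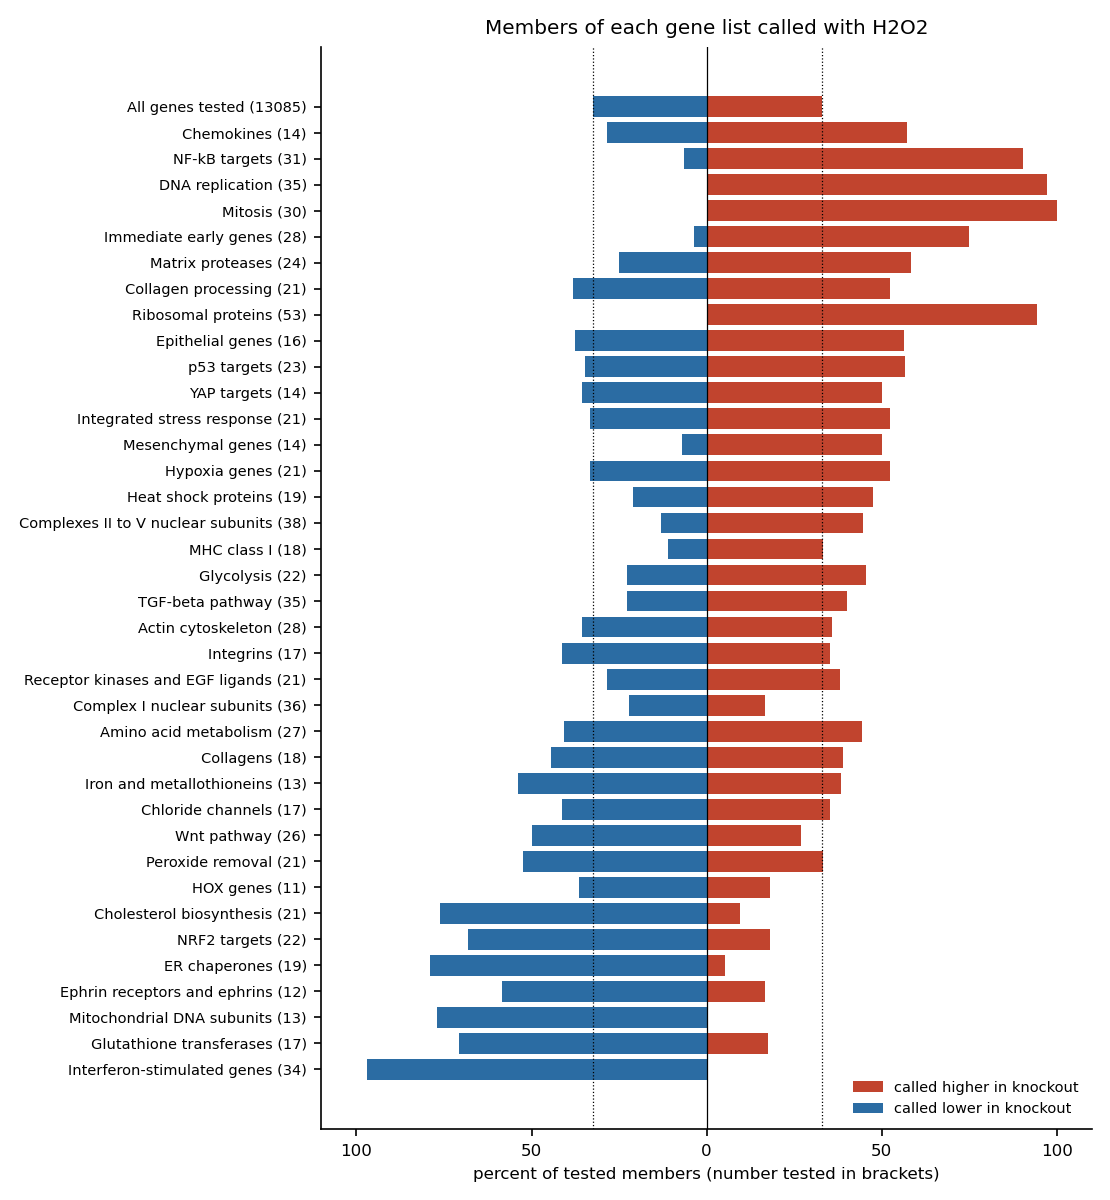
Share of tested members called higher (red, to the right) and lower (blue, to the left) in the knockout with H2O2, for gene lists with at least 10 tested members ordered by median log2 fold change, with all genes tested as the top bar and dotted lines at 33% and 32.4%. Mitosis, DNA replication, ribosomal proteins and NF-kB targets extend almost wholly to the right, and interferon-stimulated genes to the left.

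Among genes with at least 5 CPM in the higher genotype, the most raised in the knockout were Wnt10a, a Wnt ligand at 15.8, 14.6 and 15.8 CPM, the endocytic adaptor Fcho1 (12.5 CPM), Tmem26 (10.7 CPM) and Crtam (7.87 CPM), all with 0 counts in every treated wild-type library. With wild type set at 3 counts over the group, they were at least 304, 247, 212 and 156-fold higher. The steroid-making enzyme Cyp11a1 was the most abundant of the 12 most raised, at 67.7, 68 and 63.5 CPM, with 14 counts over the wild-type libraries (282-fold, 95% interval 168 to 517). Among the most reduced, Fndc3c1 (25.1, 24.9, 24.1 and 25.2 CPM in wild type), the ubiquitin ligase Mid2 (20.6 CPM), Tmtc2 (15.3 CPM), Trim44 (12 CPM), the thyroid hormone receptor Thrb (12 CPM) and the transcription factor Gata4 (8.55 CPM) had 0 counts in every treated knockout library. With the knockout set at 3 counts over the group, they were at least 341, 284, 211, 165, 165 and 117-fold lower. In all, 10 genes held at least 5 CPM in every knockout library and under 0.1 CPM in every wild-type library, and 20 showed the reverse, the kinase receptor Ephb2 and the actin bundler Lcp1 among them.

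Where both genotypes expressed the gene at 20 CPM or more, the most reduced was Avil, an actin regulator of the villin family, at 24.9, 24.4 and 23.5 CPM against 212, 195, 205 and 202 CPM (log2 fold change -3.07 ± 0.166, SE, adjusted p = 5.74e-09). Scrn1 (40.4 against 152 CPM, log2 fold change -1.90, adjusted p = 5.19e-09) and the cation pump Atp13a4 (45.7 against 156 CPM, log2 fold change -1.77, adjusted p = 5.63e-14) followed after Dsp and Clic4. Among the most raised, beside Fn1, Ptges and Ccl2, was the microtubule protein Map1a, at 122, 128 and 126 CPM against 27.6, 21.6, 25.7 and 25.4 CPM (log2 fold change 2.33 ± 0.0956, SE, adjusted p = 4.47e-12). Among genes over 500 CPM, osteopontin (Spp1) was measured at 2685, 3272 and 2798 CPM against 789, 836, 815 and 863 CPM (log2 fold change 1.82 ± 0.0797, SE, adjusted p = 5.29e-11), and the tubulins Tubb5 (1876 against 681 CPM) and Tuba1b (1358 against 609 CPM) were higher by over 2-fold (log2 fold change 1.46 and 1.16). The Golgi protein Tgoln1 (545 against 1283 CPM, log2 fold change -1.24, adjusted p = 1.41e-19) and the lysosomal glycoprotein Gpnmb (336 against 762 CPM, log2 fold change -1.18, adjusted p = 2.63e-09) were lower.

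The same genotypes without peroxide gave a similar picture. Untreated, 8746 of 13085 genes (66.8%) were called, and 7656 were called in the same direction in both contrasts, which is 89.46% of those called with H2O2 and 87.54% of those called without. The 2 contrasts share no library. Of the 1820 genes called at 2-fold or more with H2O2, 1714 (94.18%) were called in the same direction untreated and 106 were not called, mt-Atp8 and Itgam among them. Without wild-type replicate 9, a setting chosen after seeing the data, 8501 of 13049 genes (65.1%) were called untreated, 7550 of them in the same direction as with H2O2 (88.08% of the genes then called with H2O2 and 88.81% of those called without). Of the 1811 then called at 2-fold or more with H2O2, 1704 (94.09%) were called in the same direction untreated. Itgam, an integrin chain of myeloid cells, stood at 6.48 CPM in replicate 9 and at 0.638 to 1.6 CPM in the other untreated wild-type libraries, and it was called untreated without replicate 9 (log2 fold change 1.69, adjusted p = 2.44e-07). Prr12, Tmsb10 and Gm18588 were called in opposite directions with all libraries, lower with H2O2 (log2 fold change -0.16, -0.30 and -0.51) and higher without (0.13, 0.21 and 0.39). Without replicate 9 the untreated calls for Prr12 (0.12, adjusted p = 0.0835) and Gm18588 (0.32, adjusted p = 0.113) were lost, and 2 genes had opposite calls, Tmsb10 and Gm47854. The H2O2 call for Prr12 was lost without knockout replicate 7 (-0.08) or wild-type replicate 14 (-0.15), and that for Gm18588, a pseudogene whose reads may come from a copy, without knockout replicate 5 (-0.44) or 7 (-0.30) or wild-type replicate 13 (-0.43) or 16 (-0.48).

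The test of whether the genotype difference itself changed with H2O2, the interaction of the edgeR fit, called 0 genes (0%), with 808 at an unadjusted p under 0.05 and a smallest adjusted p of 0.148. Without untreated wild-type replicate 9 it also called 0, with 675 at an unadjusted p under 0.05 and a smallest adjusted p of 0.134. DESeq2 on the same genes called 7. Those were Anp32b, Ptms, Mt1, Rpl5, mt-Atp8 and the pseudogenes Gm10243 and Gm10095, whose reads may come from near-identical copies. Leaving out knockout replicate 8 or wild-type replicate 15 gave 1 and 3 calls in edgeR, Gm4540 in the former and Rpl5, Gm10275 and Tmsb10 in the latter. For Mt1 the knockout minus wild type difference was 0.54 untreated and 0.23 with H2O2 (interaction -0.31 ± 0.0618, SE, adjusted p = 0.148). Without wild-type replicate 9 its untreated difference was 0.55 (interaction adjusted p = 0.134). Untreated knockout libraries held 188 to 212 CPM of Mt1 and treated ones 165 to 175 CPM, while wild type held 134 to 142 CPM untreated and 138 to 152 CPM treated. For mt-Atp8 the difference was -0.22 untreated and -1.09 with H2O2 (interaction adjusted p = 0.455). Without wild-type replicate 9 its untreated difference was -0.25 (interaction adjusted p = 0.539).

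**Figure D5:**
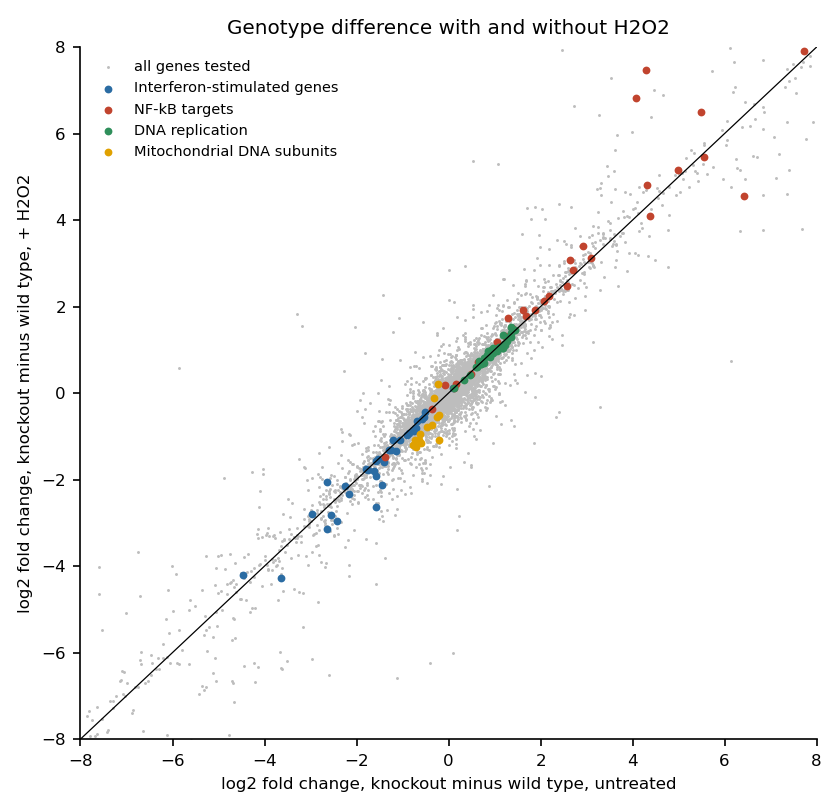
Log2 fold change of knockout minus wild type without H2O2 (horizontal) and with H2O2 (vertical) for all genes tested, with the diagonal marking equal values and 64 genes beyond 8 on either axis not drawn. Interferon-stimulated genes, NF-kB targets and replication genes lie close to the diagonal, and most mitochondrial DNA subunits lie below it. None of these subunits was called in the edgeR test of that difference, while DESeq2 called mt-Atp8.

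Markers were read to check the cells. The luminal keratins Krt8 and Krt18 were abundant, and the luminal list summed to 966 to 1030 CPM in the knockout and 1150 to 1200 CPM in wild type, but 7 of its 16 markers, with Pgr, Elf5 and the milk protein genes Csn2 and Wap among them, were at 0 in all treated libraries. The estrogen receptor Esr1 had 1 count over the knockout libraries and stood at 2.88 CPM in wild type. Epithelial genes outside the keratins and desmosomes were in part almost unread. Cdh1 had 3 counts over the knockout and 2 over the wild-type libraries, Epcam 1 and 0, and Cldn3 1 and 2. Esrp1 and Cldn7 had 0 in all treated libraries. The keratins alone do not show that the cells are luminal. Basal markers were near 0, summing to 3.75 to 4.67 and 0.881 to 1.18 CPM. Of 15 immune markers, 4 were at 0, Cd3e, Cd79a and Tyrobp among them, and the sum of 293 to 310 CPM in the knockout and 433 to 459 CPM in wild type came mostly from Cd68, a lysosomal protein (270.0 against 404 CPM). Endothelial markers summed to 5.49 to 5.89 and 23.5 to 26.5 CPM, in wild type mostly Vwf (2.22 against 23.7 CPM), with Emcn and Cldn5 at 0. Fibroblast markers summed to 11.6 to 12.4 and 16.9 to 22 CPM, mostly Pdgfra (11.1 against 18.7 CPM), with 5 of 10 at 0, and erythroid ones to at most 0.655 CPM. The part of these markers in the results was not tested.

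Along the genome, medians over genes with at least 5 CPM ran from -0.05 on chromosome X to 0.055 on chromosome 17. Over windows of 25 neighbouring genes, the highest medians were on distal chromosome 5, from Mtif3 to Rfc3 (0.76, with 21 of 25 genes higher) and from Tnrc18 to Smurf1 (0.651, with 22 higher), a span that includes Fscn1. The lowest was on chromosome 1, from Lactb2 to Lmbrd1 (-0.515, with 17 of 25 lower). Around Clic4 the neighbouring genes Srrm1 (log2 fold change 0.18, adjusted p = 0.00128) and Rcan3 (log2 fold change -0.10, adjusted p = 0.108, not called except without knockout replicate 7, at -0.15) differed little, while Nipal3 was lower (10.0 against 23.6 CPM, log2 fold change -1.23, adjusted p = 5.10e-12).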

How the data were processed

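Gene-level values of 15 libraries were used. The authors deposited expected counts from RSEM and RPKM, after trimming with cutadapt and alignment with STAR to mm10, per the submitters' processing notes; versions and settings are not given in the sources used here. RPKM, deposited by the authors for 53528 of 55341 genes, served only to compare levels between genes. Expected counts were rounded. Genes passing edgeR's filter (13085, holding 99.917% of counts) were scaled by TMM and fitted in 1 quasi-likelihood model over the 4 groups (edgeR 4.0.16, R 4.3.3, 11 residual degrees of freedom), with Benjamini-Hochberg adjustment over all tested genes and a threshold of 0.05. All 15 libraries share 1 estimate of spread, with a common biological coefficient of variation of 4.958%. CPM are the TMM-scaled counts per M.

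Treated libraries held 12.31 to 15.84 M counts. Exact binomial intervals (95%) and floors of 3 counts cover counting error only. One untreated wild-type library, replicate 9, has a genotype field that goes against its title; the title was used, and the comparison was also run without it. Gene models, positions and types are from GENCODE M21 (mm10). Promoter windows are RefSeq's (GRCm38.p6): 9579 of 13085 tested genes matched one by symbol. Where a gene had several windows, a match in any of them counted. Gene sets compared for a motif overlap, since list members are counted again among all tested genes and, where they qualify, in the 2-fold sets. The kappa B consensus was searched on both strands. The letters of every motif are stated in the text, and matches of 1 motif may overlap. Alternatives were other scalings, filters, DESeq2 1.42.0, a fit of treated libraries only, a 1.5-fold null (glmTreat) and leaving out each treated library. Leaving untreated wild-type replicate 9 out of the untreated contrast was added after seeing the data.

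Genes were named by rule: the CLIC genes; the 12 largest and 12 smallest log2 fold changes among called, non-overlapping genes with at least 5 CPM in the higher genotype; the 8 at each end with at least 20 CPM in both; the 6 at each end with at least 500 CPM; up to 4 called members each way per list with at least 5 CPM; and, for the interaction, the 5 smallest p-values. Others named from a list were chosen after their values were seen. The members, lists and rules were chosen with earlier results of these data known. Some genes that the rule names are not reported here.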

Additional observations from a re-analysis of the deposited data

Results flagged for a closer look

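In the treated wild-type group, the highest or lowest of the 4 libraries stood apart from the other 3 for 19 of 199 measures examined, with a ratio of the gap to the range above Dixon's 95% critical value. Chance sets apart about 1 in 20 groups. The ratio is in parentheses. Replicate 13 stood apart for Gclm, 41.3 against 36.4 to 36.7 CPM in the others (0.934) and for Icam1, 0.0629 against 0 CPM in the others (1). It also did so for Ifit3, 1.95 against 2.6 to 2.66 CPM in the others (0.915) and for Lmbrd1, 89.2 against 85.6 to 86.2 CPM in the others (0.847). It also did so for Vldlr, 267 against 233 to 238 CPM in the others (0.855). Replicate 14 stood apart for Atf4, 353 against 373 to 375 CPM in the others (0.919) and for Fscn1, 3.61 against 4.6 to 4.74 CPM in the others (0.877). Replicate 15 stood apart for Gdf15, 0.0742 against 0 CPM in the others (1) and for Gm10095, 14.6 against 5.22 to 6.18 CPM in the others (0.898). It also did so for Gm10275, 435 against 572 to 584 CPM in the others (0.921) and for Hspb7, 0.148 against 0.0623 to 0.0718 CPM in the others (0.889). It also did so for Oas3, 155 against 174 to 177 CPM in the others (0.896) and for Vwf, 21.8 against 24.2 to 24.4 CPM in the others (0.927). Replicate 16 stood apart for Bax, 129 against 111 to 114 CPM in the others (0.849) and for Ifi44, 23.4 against 19.9 to 20 CPM in the others (0.955). It also did so for Irf9, 53 against 50.7 to 50.8 CPM in the others (0.977) and for Ptms, 183 against 166 to 169 CPM in the others (0.863). It also did so for mt-Co1, 9750.0 against 10500.0 CPM in the others (0.988) and for the share of counts from mitochondrial DNA subunits, 2.73 against 2.94 to 2.98% in the others (0.84). For Icam1 and Gdf15 the other 3 libraries were at 0, so the ratio is 1 whatever the value, and each rests on 1 count. Hspb7 rests on 5 counts over the 4 libraries. The groups did not come to overlap through these libraries for Oas3, Ifi44, Irf9, Fscn1 or Vldlr.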

How the results depend on the processing

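With H2O2, the number of genes called was 8555 with RLE scaling, 8582 with upper-quartile scaling, 8736 with no filter on low counts, 8341 with at least 1 CPM in 3 libraries, 8832 in a fit of the 7 treated libraries, 8108 with DESeq2, 8572 without untreated wild-type replicate 9 and 7965 to 8308 when 1 treated library was left out, against 8558. Against a 1.5-fold null it was 2223. No gene named in the text reversed under these settings, and the genes whose call changed when 1 library was left out are given with their values above, beside Ptms and Gm10243, which passed without some libraries. With RLE or upper-quartile scaling Gclm lost its call and Pkm and Ptms passed. In DESeq2 Gclm and Gm18588 lost theirs and Gm10243, mt-Co3, mt-Nd3 and Pkm passed. In a fit of the 7 treated libraries the calls changed for Atf4, H2-K1, Pkm and Ptms, which passed, and for Tmsb10, which did not.

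The interaction, with 0 calls, gave 7 in DESeq2, 5 with no filter (Ptms, Mt1, Gm3788, Gm43940 and Gm3776) and 0 to 3 when 1 treated library was left out (1 without knockout replicate 8 and 3 without wild-type replicate 15).

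List medians moved most with the filter, since unfiltered lists hold genes with few counts. With no filter they were -0.59 for the CLIC family, -0.52 for glutathione transferases, 0.073 for NADPH oxidases, 0.25 for p53 targets, 1.92 for NF-kB targets, 1.45 for chemokines, 0.11 for collagens, 0.45 for collagen processing, 0.38 for matrix proteases, 0.021 for the TGF-beta pathway, 0.72 for basal and -0.29 for endothelial markers, and 0 for epithelial genes, chloride channels, immune cells and fibroblasts. With at least 1 CPM in 3 libraries they were 0.40 for mesenchymal genes, 0.44 for collagens, 0.36 for matrix proteases, -0.001 for HOX genes, 0.16 for YAP targets, 3.03 for basal markers and 0.008 for immune markers. In the fit of treated libraries only they were 0.35 for matrix proteases and 3.03 for basal markers. When 1 treated library was left out, medians ran from 0.075 (without knockout replicate 5) to 0.195 for heat shock proteins, from -0.053 (without knockout replicate 5) to 0.023 for receptor kinases, from -0.296 to -0.014 (without knockout replicate 5) for HOX genes, from -1.054 to -0.768 (without knockout replicate 8) for mitochondrial DNA subunits and from 0.241 (without wild-type replicate 13) to 0.307 for p53 targets.

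No paired analysis was possible because replicate numbers are unique to each library and no group shares one with another. Depth limits genes under 1 CPM, of which 35.4% were called, at a median standard error of 0.454.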

Other observations

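Of 10 histone genes with polyadenylated transcripts, 9 were tested, 8 higher and 1 lower in the knockout, against 33% and 32.4% of all genes, with a median log2 fold change of 0.42. Of 29 genes of amino acid metabolism 27 were tested, 12 higher and 11 lower, and of 32 actin genes 28 were tested, 10 higher and 10 lower. Of 39 HOX genes 11 were expressed enough to test, 2 higher and 4 lower. For these lists too, the shares over all genes were 33% higher and 32.4% lower. Hoxb7 was higher (6.11 against 3.89 CPM, log2 fold change 0.64, adjusted p = 3.32e-04) and Hoxb4 lower (3.97 against 6.87 CPM, log2 fold change -0.79, adjusted p = 9.55e-06). Among iron genes, the iron exporter Slc40a1 was lower (0.0962 against 1.67 CPM, log2 fold change -3.99, adjusted p = 1.01e-08) and the importer Slc11a2 higher (58.5 against 34.3 CPM, log2 fold change 0.77, adjusted p = 0.00148). The hypoxia target Car9, a carbonic anhydrase, was higher (3.63 against 0.660 CPM, log2 fold change 2.44, adjusted p = 1.02e-08), and the collagen hydroxylase P4ha2 lower (25.5 against 62.7 CPM, log2 fold change -1.30, adjusted p = 2.59e-11).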
